A study of Mus musculus with 20 samples.

Results

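The nuclear-encoded subunits of the respiratory chain are the proteins of the inner mitochondrial membrane complexes that are made from genes in the nucleus. They were chosen by gene symbol, with no measured value used: protein-coding genes whose symbol begins with Ndufa, Ndufb, Ndufc, Ndufs, Ndufv, Uqcr, Cox4 to Cox8 or Atp5, together with Cyc1 and Sdha to Sdhd, without pseudogenes and assembly factors. The rule gave 86 genes of the 54532 in the tables, with 38 in complex I, 4 in complex II, 9 in complex III, 18 in complex IV and 17 in complex V. Of these, 28 overlap another annotated gene over their whole span, introns included and on either strand, and 58 do not. Reads in a stretch of exon shared with another gene could not be told apart without strand, and shared exons were not counted.

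Complex I (NADH dehydrogenase, the Nduf genes) and complex II (succinate dehydrogenase, the Sdh genes) pass electrons from fuel to coenzyme Q, complex III (the Uqcr genes and Cyc1) passes them to cytochrome c, and complex IV (cytochrome c oxidase, the Cox genes) passes them to oxygen. Complex V (ATP synthase, the Atp5 genes) uses the proton gradient that this builds to make ATP. Mitochondria also make a small set of core subunits from their own genome. Several complex IV subunits exist as pairs of genes, one found mainly in heart and skeletal muscle (Cox6a2, Cox7a1, Cox8b) and one found in most tissues (Cox6a1, Cox7a2, Cox8a), and skeletal muscle is among the tissues with the most mitochondria.

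RNA-seq was carried out on whole plantaris muscles of 10 male C57BL/6J mice, 5 months of age, collected 10 days after surgery. Of these, 5 mice had a sham operation and 5 had mechanical overload (MOV), a bilateral ablation of synergist muscles that leaves the plantaris to carry more load. At surgery the left plantaris of each mouse received a control lentivirus with a scrambled sequence and the right plantaris received a lentivirus with a miR-1 mimic, both driven by a CMV promoter with TurboGFP as reporter. There were thus 4 groups of 5 libraries, sham control and MOV control for the left muscles and sham mimic and MOV mimic for the right ones, and 12036360 to 23056525 counts per library. All muscles had been injected with virus, and virus and side of the body cannot be told apart. A lentivirus reaches only some of the cells, and a whole muscle holds fibres beside blood vessel, connective tissue and immune cells. Fewer cells of a type and less RNA per cell cannot be told apart in such samples.

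The 11 muscle fibre markers were Ckm, Acta1, Tnnt3, Tnni2, Mylpf, Pvalb, Atp2a1, Myh4, Myh1, Myh2 and Casq1, a list not limited to fast fibre genes. All 11 were detected in all groups, with a sum of 140178 to 221185 CPM (counts relative to the library total, scaled by the TMM method) in sham control, 108503 to 186302 in MOV control, 133763 to 220788 in sham mimic and 82311 to 160665 in MOV mimic. No gene of the other marker lists was at 0 in every library. Some libraries stood apart. Sham control 1 and sham mimic 1 had the lowest fibroblast and leukocyte marker levels of their groups and the highest subunit levels. MOV control 4 and 5 likewise had the lowest of both marker levels in their group (leukocyte median deviations -1.09 and -1.05, against 0.26 to 0.47 in the other 3) and its highest subunit levels. MOV mimic 2 had the lowest subunit and fibre marker levels of all 20 libraries, and MOV mimic 5 had the lowest satellite cell and new fibre markers of the MOV libraries (median deviation -2.47 on the log2 scale), within the range of sham mimic. The part of these differences in the results was not tested.

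The promoters of the paired complex IV genes are shown because their level ratios are reported below, and those of Sdha and Sdhd because they carry the motifs most often found among the subunits. Each is the 150 bases before the RefSeq start of the gene on its own strand, in GRCm38.p6, with motif matches in capitals. Cox7a1 is at chr7:30184021-30184170 (plus strand), Cox7a2 at chr9:79759854-79760003 (minus), Cox8b at chr7:140900447-140900596 (minus), Cox8a at chr19:7217617-7217766 (minus), Sdha at chr13:74350241-74350390 (minus) and Sdhd at chr9:50603850-50603999 (minus).
Cox7a1: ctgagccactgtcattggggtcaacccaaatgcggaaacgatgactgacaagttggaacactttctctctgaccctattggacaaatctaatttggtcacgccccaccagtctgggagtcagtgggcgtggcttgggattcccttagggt
Cox7a2: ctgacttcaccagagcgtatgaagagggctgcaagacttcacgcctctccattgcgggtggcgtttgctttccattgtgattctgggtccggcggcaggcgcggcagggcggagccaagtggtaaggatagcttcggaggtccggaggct
Cox8b: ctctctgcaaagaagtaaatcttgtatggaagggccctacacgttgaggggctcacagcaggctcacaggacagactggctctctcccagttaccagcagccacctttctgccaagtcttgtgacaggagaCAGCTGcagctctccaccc
Cox8a: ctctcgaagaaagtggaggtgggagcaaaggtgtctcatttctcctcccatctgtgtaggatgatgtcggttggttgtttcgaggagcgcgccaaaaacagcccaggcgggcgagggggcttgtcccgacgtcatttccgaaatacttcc
Sdha: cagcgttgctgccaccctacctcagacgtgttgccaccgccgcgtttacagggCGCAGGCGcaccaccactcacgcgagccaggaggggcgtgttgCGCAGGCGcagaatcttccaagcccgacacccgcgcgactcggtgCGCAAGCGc
Sdhd: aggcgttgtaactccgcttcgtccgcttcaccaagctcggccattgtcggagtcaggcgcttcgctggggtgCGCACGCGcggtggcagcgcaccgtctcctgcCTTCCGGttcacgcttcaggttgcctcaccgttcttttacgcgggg

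Cox7a1 and Cox8b had fewer CpG pairs in this stretch than their partners, with 4 in Cox7a1 and 1 in Cox8b against 11 in Cox7a2 and 10 in Cox8a. The promoter of Cox6a2 was not analysed here. The median was 11 over the 74 start sites of the 69 subunit genes with a promoter sequence and 7 over those of 17492 protein-coding genes. Sdha and Sdhd had 19 CpG pairs each. Motifs were searched on both strands of the 300-base windows from 250 bases before to 50 after each start. The core of the NRF1 site, CGCANGCG, was found in 26 of 69 subunit genes (37.7%) and in 12.5% of the 17492 protein-coding genes. It matched 3 times in the Sdha stretch above. The ETS site of GABP, CCGGAAG, was in 17 of 69 subunit genes (24.6%, against 12.9% of all), the YY1 site ATGGCGG in 10 (14.5%, against 6.05%) and the ERR site AAGGTCA in 8 (11.6%, against 4.73%). Cox8a is among the 17 with the ETS site, though the shorter stretch above holds no full match. The E-box CAGCTG, which muscle transcription factors bind, was in 6 (8.7%, against 17.4%), Cox8b among them. Each motif was counted on its own, also where matches of different motifs shared bases, and a match is letters in a window, not measured binding.

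Compared per kilobase of annotated exon (lengths from GENCODE M1, of an older build), the most abundant subunit mRNAs in sham control were Cox6a2 (1254 ± 407 CPM per kb, SD, n = 5), Cox4i1 (1007 ± 182), Cox8b (989.6 ± 409), Ndufa4 (895 ± 216) and Atp5a1 (893 ± 228). Cox4i1 encodes the general form of the regulatory subunit 4 of cytochrome c oxidase, Ndufa4 a subunit first assigned to complex I and now placed in complex IV, and Atp5a1 the alpha subunit of ATP synthase. Complexes were assigned by symbol, so that all counts and medians of complex I include Ndufa4 and its relative Ndufa4l2. The median over members was 133 CPM per kb in complex I, 207 in II, 245 in III, 232 in IV and 229 in V. At the low end, Cox8c had no count in any library, Cox7b2 had counts in 2 libraries, and Cox6b2, a testis form, had 0 to 21 counts per library. Ndufb2 was lowest in complex I (4.36 ± 0.732 CPM per kb). Its annotated exon length was 5628 bases, and its gene span overlaps 3 other genes. The members together took 2.32% to 3.05% of all counts in sham control, 2.16% to 2.43% in MOV control, 2.29% to 2.56% in sham mimic and 1.97% to 2.47% in MOV mimic.

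**Figure D1:**
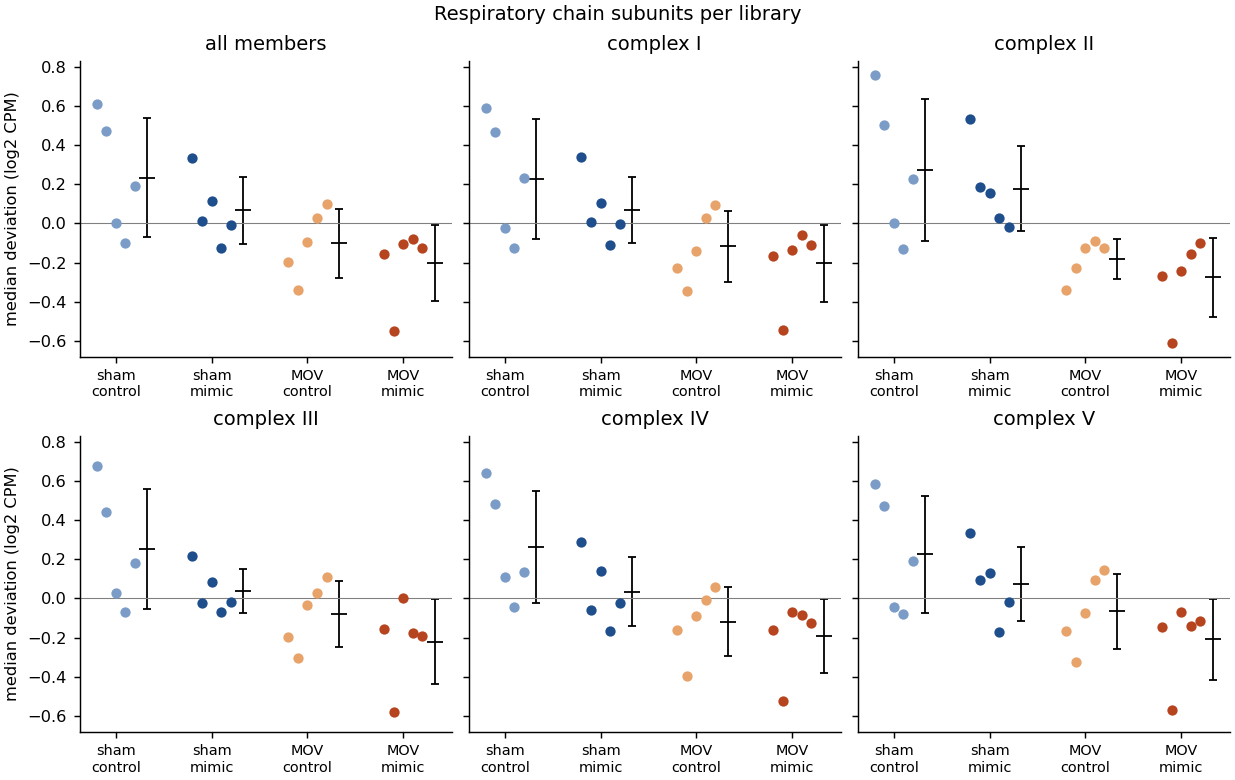
Median deviation of the tested subunits from their mean over the 20 libraries, on the log2 CPM scale, for all members and by complex. Points are libraries, and bars are the mean and SD of 5. The MOV libraries lie lower on average in each complex, sham control and MOV control overlap in every complex, sham mimic and MOV mimic overlap in all but complex II, and MOV mimic 2 lies at -0.55 for all members.

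In muscles with the control virus, the mean level of nearly all subunits was lower after overload, but no single subunit passed edgeR's test. The subunits were measured in the same libraries and are not independent of each other, so that signs are not separate observations. By library, their median deviation was -0.10 to 0.61 in sham control and -0.34 to 0.10 in MOV control, with overlap. The fitted log2 fold change in MOV control against sham control was negative for 80 of the 83 subunits tested (96.4%), against 45.8% of all 14974 genes. The median was -0.35 over the subunits and 0.04 over all genes, and fold changes of single genes are given on the log2 scale ± SE. All 38 members of complex I had a negative value (median -0.35), as had all 4 of complex II (-0.51), all 9 of complex III (-0.36), 13 of 15 tested in complex IV (-0.28) and 16 of 17 in complex V (-0.31). With edgeR's quasi-likelihood test 0 subunits had an adjusted p under 0.05, where 1 of all genes did (0.00668%). At an unadjusted p under 0.05, 34 subunits were lower (41.0%, against 9.15% of all genes) and 0 higher. DESeq2 on the same libraries called 8 subunits lower (9.64%, against 3.48% of all genes) and 0 higher. Limma with voom called 9 lower (against 3.52% of all genes) and 0 higher (against 2.8%). The groups did not overlap for 8 subunits, all lower in MOV control (9.64%, against 2.45%). Of all genes, 54.2% had a positive value and 9.06% were higher at an unadjusted p under 0.05.

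The median of the subunits was between -0.44 and -0.24 when each library was left out in turn, with the smallest size without sham control 1. Without the libraries numbered 1 of sham and 5 of MOV it was -0.34, and 80 of 84 were negative. With total counts as the only scaling the median of all genes moved to 0.20, that of the subunits was -0.18 with 67 of 83 negative, and the gap between the 2 medians was -0.38, beside -0.39 with TMM. The number of DESeq2 calls rested on single libraries: it was 4 without sham control 1, 1 without sham control 2, 16 without sham control 3, 15 without sham control 4 and 5 without sham control 5. It was 2 without MOV control 1, 5 without MOV control 2, 7 without MOV control 4 and 14 without MOV control 5. The share of all genes that DESeq2 called lower moved too, from 1.69% without sham control 2 to 5.83% without MOV control 5. By edgeR, 2 subunits passed without sham control 3 (where 1.66% of all genes were called lower) and 1 without MOV control 5 (1.35%).

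Complex II, which also serves the citric acid cycle, had the lowest median. Sdha, its flavoprotein, was at 1271, 930.2, 661, 679 and 787 CPM in the 5 sham control libraries and at 499, 539, 574, 512 and 599.8 in MOV control. All MOV libraries lay below all sham libraries, with a log2 fold change of -0.66 ± 0.18 (edgeR adjusted p = 0.0935, DESeq2 adjusted p = 0.0112). Sdhb, the iron-sulphur subunit, was at 749, 583, 408, 362 and 565 CPM in sham control and at 302, 305, 348, 360.2 and 372 in MOV control. Here 1 MOV library lay above the lowest sham library, with a log2 fold change of -0.65 ± 0.19 (edgeR adjusted p = 0.104, DESeq2 adjusted p = 0.0209). The membrane anchors differed less, with -0.37 ± 0.15 for Sdhd (edgeR adjusted p = 0.222) and -0.16 ± 0.14 for Sdhc (edgeR adjusted p = 0.572), and the groups overlapped for both.

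In complex IV the lowest values were those of the muscle forms Cox7a1 and Cox8b, followed by Cox7b, which is not one of the paired muscle forms, and Cox6a2. The value of Cox7a1 was the lowest of all subunits. Cox7a1 was at 329.7, 297, 167, 143 and 182 CPM in sham control and at 104, 86.2, 133, 102 and 125 in MOV control. All MOV libraries lay below all sham libraries, sham control 1 and 2 being far above the other 3, and the log2 fold change was -1.02 ± 0.23, a level 0.495 times that in sham (edgeR adjusted p = 0.0630, DESeq2 adjusted p = 0.00198). Cox8b was at 583, 436, 243, 248 and 281 CPM in sham control and at 180.0, 135, 208, 181 and 232 in MOV control, again without overlap (-0.93 ± 0.25, edgeR adjusted p = 0.0848, DESeq2 adjusted p = 0.0101). Cox6a2, the muscle form of subunit 6a, overlapped between the groups (-0.65 ± 0.25, edgeR adjusted p = 0.189). Their general partners had higher values, namely -0.22 ± 0.16 for Cox7a2, 0.06 ± 0.18 for Cox6a1 and 0.20 ± 0.14 for Cox8a, with edgeR adjusted p of 0.485, 0.887 and 0.478. Cox4i1, with the most counts of the complex beside Cox6a2, had -0.25 ± 0.15 (edgeR adjusted p = 0.418). Its low-level partner Cox4i2 was at 23 to 62 counts per library in these 2 groups.

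**Figure D2:**
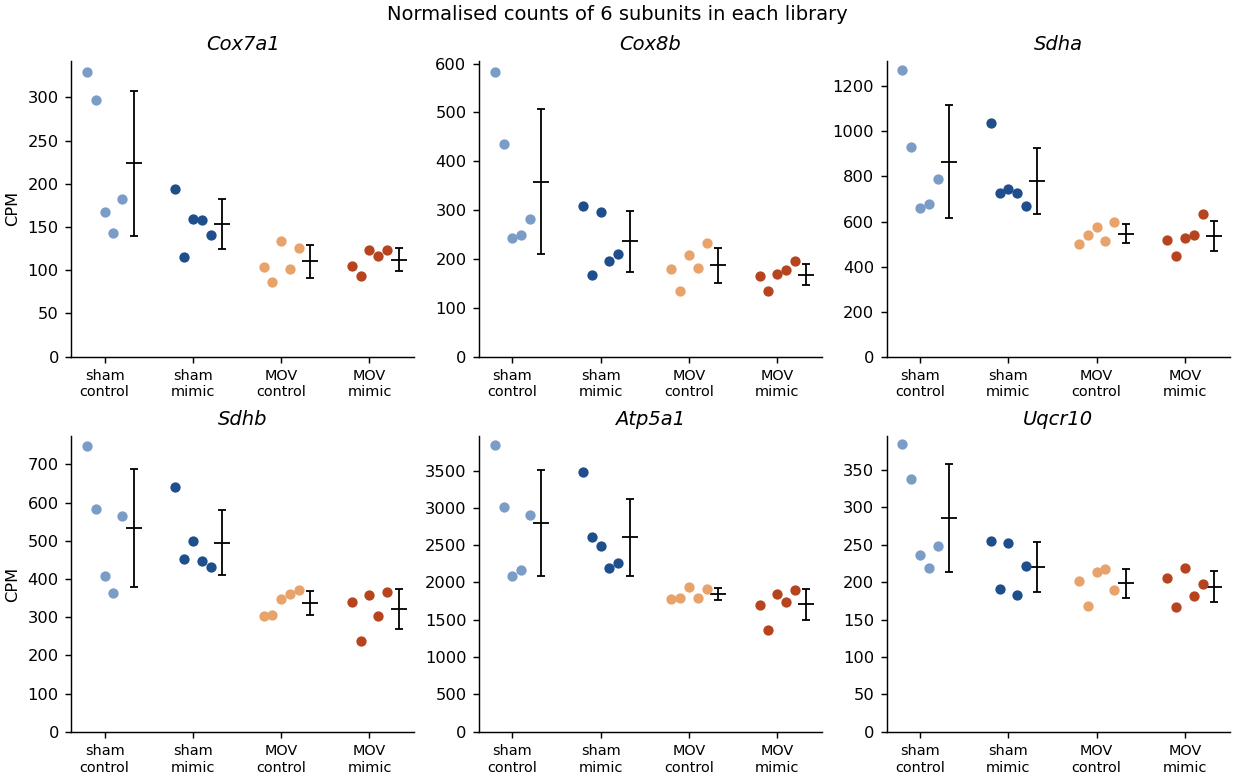
CPM (TMM scaling) of 6 subunits in each of the 20 libraries, with the axis from 0. Points are libraries, and bars are the mean and SD of 5. For Cox7a1, Cox8b, Sdha, Atp5a1 and Uqcr10 the MOV control points all lie below the sham control points, and for Sdhb, Sdha and Atp5a1 the MOV mimic points all lie below the sham mimic points.

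In complex V, Atp5a1 was at 3836, 3004, 2081, 2166 and 2904 CPM in sham control and at 1784, 1789, 1944, 1791 and 1917 in MOV control. The groups did not overlap (-0.59 ± 0.18, edgeR adjusted p = 0.123, DESeq2 adjusted p = 0.0147). Atp5b, the catalytic beta subunit, had -0.47 ± 0.18 without overlap (edgeR adjusted p = 0.188). The highest values of the complex were 0.04 ± 0.18 for Atp5g2, which encodes 1 form of the membrane ring subunit c, and -0.03 ± 0.21 for Atp5mpl, a small membrane subunit, both with overlapping groups.

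In complex III, Uqcr10, a small subunit, was at 384, 338, 236, 219 and 249 CPM in sham control and at 201, 168, 214, 217 and 190.1 in MOV control. All MOV libraries lay below all sham libraries (-0.52 ± 0.17, edgeR adjusted p = 0.137, DESeq2 adjusted p = 0.0507). The core proteins Uqcrc1 and Uqcrc2 had -0.38 ± 0.17 and -0.44 ± 0.16 with overlapping groups, and the Rieske iron-sulphur protein Uqcrfs1 had -0.35 ± 0.16. The values nearest to 0 were -0.34 ± 0.21 for Uqcrb, a small subunit, and -0.01 ± 0.17 for Uqcrh, the hinge protein.

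In complex I the lowest fitted value was that of Ndufa12, an accessory subunit, at 201, 158, 60.1, 118 and 78.4 CPM in sham control and 44.5, 45.3, 101, 58.1 and 71.2 in MOV control. The groups overlapped (-0.94 ± 0.32, edgeR adjusted p = 0.151, DESeq2 adjusted p = 0.0521). A processed copy, Ndufa12-ps, was counted beside it at 38.1, 42.0, 44.7, 16.5 and 44.6 CPM in sham control and 44.8, 36.9, 20.8, 34.5 and 64.3 in MOV control, so that the share of the 2 that fell on the copy ran from 12.2% to 42.6% and from 17.1% to 50.1%. Reads of the gene and the copy may not be separable. For their sum, chosen after the values were seen, the log2 difference was -0.58 (exact permutation p = 0.0556, two-sided, n = 5 and 5).

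Ndufa4l2, a form of Ndufa4 known from low-oxygen responses, was at 10.1, 12.3, 11.2, 10.1 and 12.2 CPM in sham control and 8.13, 8.19, 8.42, 7.18 and 3.58 in MOV control. The groups did not overlap (-0.64 ± 0.22, edgeR adjusted p = 0.153, DESeq2 adjusted p = 0.0609). Ndufa4, abundant in all groups, had -0.32 ± 0.18 with overlapping groups. The values nearest to 0 were those of the accessory subunits Ndufa2 (-0.08 ± 0.18) and Ndufb7 (-0.02 ± 0.16). The other 3 subunits called by DESeq2, named after their values were seen, were the complex I core subunits Ndufs1 (-0.55 ± 0.16, DESeq2 adjusted p = 0.0250) and Ndufv1 (-0.53 ± 0.17, DESeq2 adjusted p = 0.0475) and the complex IV subunit Cox7b (-0.75 ± 0.20, DESeq2 adjusted p = 0.0161).

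**Figure D3:**
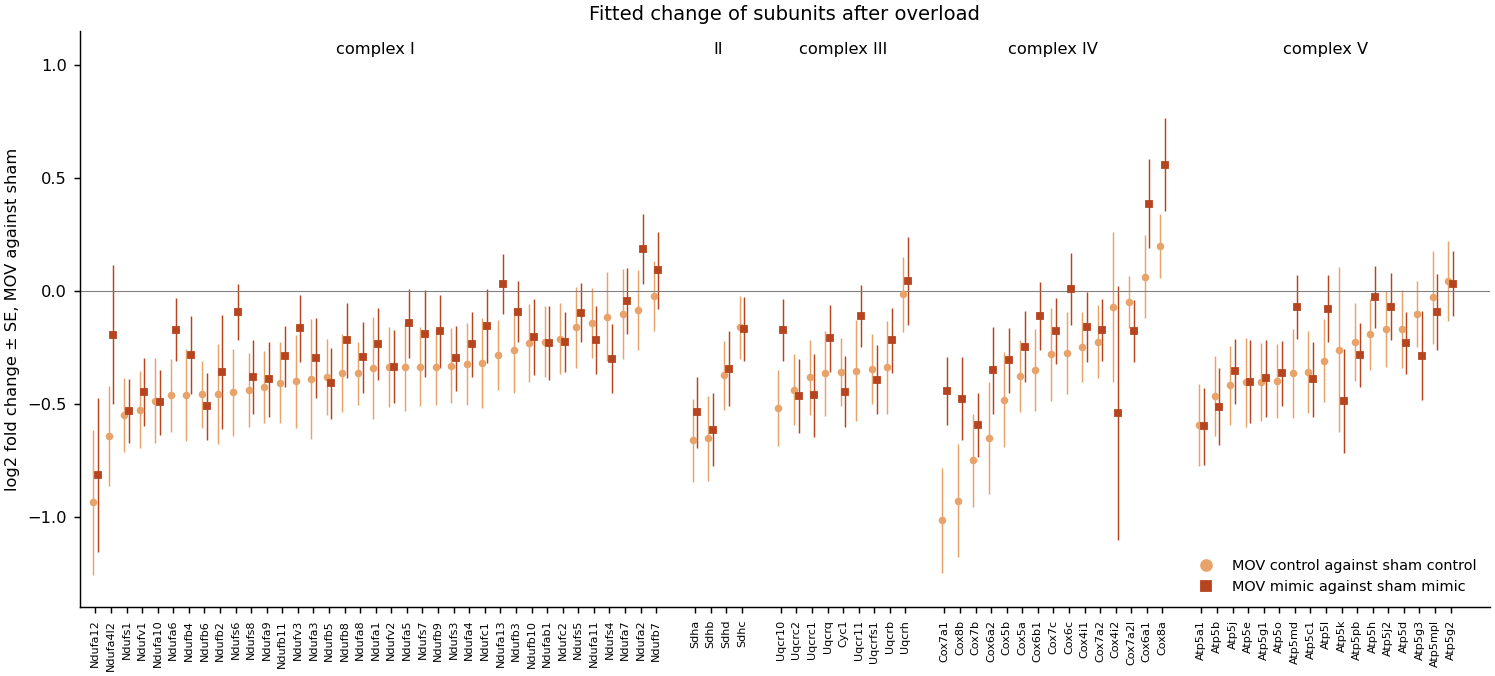
Fitted log2 fold change (edgeR, ± SE) of the subunits tested and reported for MOV control against sham control (circles) and MOV mimic against sham mimic (squares), sorted by the former within each complex. Nearly all points lie below 0, and Cox8a and Cox6a1 lie highest.

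The ratio of paired genes within a library does not depend on the scaling of libraries. The log2 ratio of Cox7a1 to Cox7a2 was 0.68, 0.54, 0.22, 0.15 and 0.22 in sham control and -0.41, -0.41, -0.08, -0.74 and -0.28 in MOV control. Every MOV control library lay below every sham control library, with a difference of -0.74 (exact permutation p = 0.00794, adjusted p = 0.0847) (two-sided, n = 5 and 5). This p is the smallest that 5 against 5 allow (0.00794), and the adjustment was over the 32 tests of 8 pairs in 4 comparisons. None of the 32 had an adjusted p under 0.05. With the mimic the ratio in MOV was -0.36, -0.28, -0.14, -0.29 and -0.51, which overlapped with sham mimic, and the difference was -0.24 (exact permutation p = 0.111, adjusted p = 0.323). Without sham mimic 2 it was -0.35 (exact permutation p = 0.0159). Per kilobase of exon, Cox7a1 stood at 2.29 to 3.32 (median 2.41) times the level of Cox7a2 in sham control and at 1.24 to 1.95 (median 1.56) times in MOV control.

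The log2 ratio of Cox8b to Cox8a was 4.09, 3.31, 2.43, 2.46 and 3.15 in sham control and 1.91, 1.86, 2.01, 1.89 and 2.44 in MOV control, with overlap by 1 library of MOV control. The difference was -1.07 (exact permutation p = 0.0159, adjusted p = 0.0847). In the muscles with the mimic the ratio was 3.45, 2.14, 3.34, 2.62 and 2.39 in sham and 2.21, 1.40, 1.73, 1.23 and 2.54 in MOV (difference -0.96, exact permutation p = 0.0397, adjusted p = 0.141), and the unadjusted p rose above 0.05 without sham mimic 1, 3 or 4 or MOV mimic 2, 3 or 4. For Cox6a2 to Cox6a1 the difference was -0.68 (exact permutation p = 0.159, adjusted p = 0.363) with the control virus and -0.70 (exact permutation p = 0.127, adjusted p = 0.332) with the mimic, with wide overlap. Without MOV control 5 the former was -0.98 (exact permutation p = 0.0317), and without MOV mimic 5 the latter was -0.95 (exact permutation p = 0.00794).

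The log2 ratio of Atp5g1 to Atp5g2, which encode the same subunit c from different genes, was 1.36, 1.01, 0.91, 1.07 and 1.61 in sham control and 0.67, 0.89, 0.75, 0.92 and 0.55 in MOV control. The difference was -0.43 (exact permutation p = 0.0159, adjusted p = 0.0847), and with the mimic it was -0.43 (exact permutation p = 0.0238, adjusted p = 0.109). Against Atp5g3 the differences of Atp5g1 were -0.29 (exact permutation p = 0.0159, adjusted p = 0.0847) and -0.10 (exact permutation p = 0.603, adjusted p = 0.762). Ndufa4l2 to Ndufa4 differed by -0.39 (exact permutation p = 0.397, adjusted p = 0.704) and -0.05 (exact permutation p = 0.905, adjusted p = 0.992), and Cox4i2 to Cox4i1 by 0.18 (exact permutation p = 0.429, adjusted p = 0.704) and -0.58 (exact permutation p = 0.460, adjusted p = 0.704), all with overlap.

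**Figure D4:**
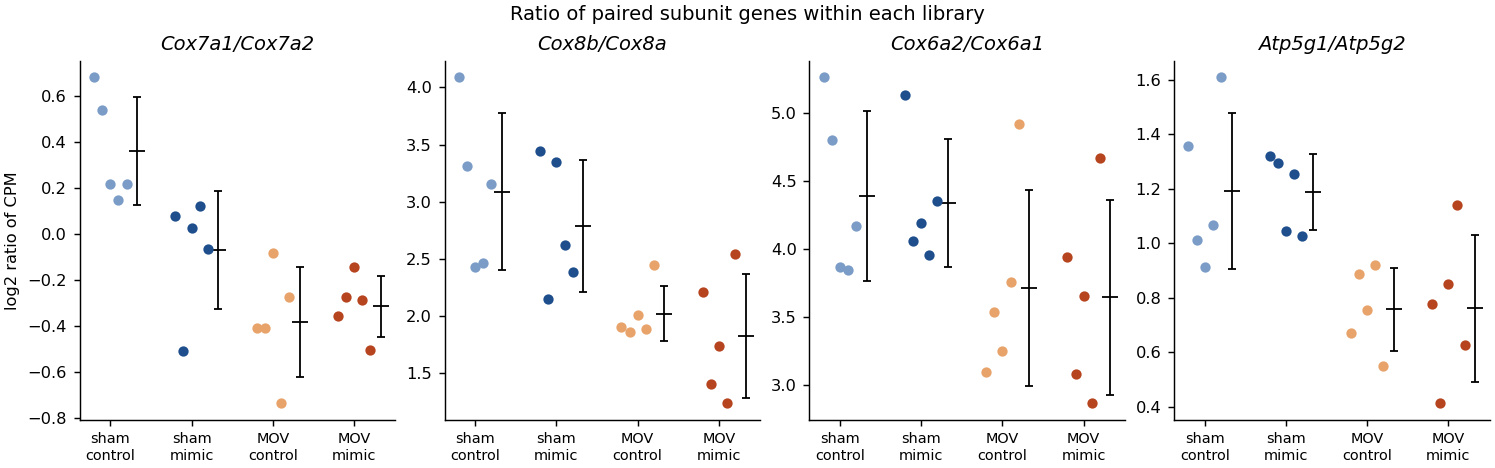
Log2 ratio of CPM of 4 pairs of subunit genes within each library. Points are libraries, and bars are the mean and SD of 5. The Cox7a1/Cox7a2 ratios of MOV control (-0.74 to -0.08) lie below those of sham control (0.15 to 0.68), and the sham mimic ratios (-0.51 to 0.12) also lie below sham control.

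With the miR-1 mimic, the subunits were again mostly lower on average after overload. Against sham mimic, 75 of 83 in MOV mimic had a negative log2 fold change (90.4%, against 48.2% of all 14918 genes), and these 75 were among the 80 that were negative with the control virus. The comparisons for the 2 viruses use muscles of the same mice and are not independent. The medians with the mimic were -0.24 over the subunits, 0.02 over all genes, -0.23 in complex I, -0.44 in II, -0.22 in III, -0.18 in IV and -0.29 in V. edgeR called 0 subunits and 0 of all genes (0.0%), with 24 subunits lower (28.9%, against 6.08%) and 1 higher at an unadjusted p under 0.05. DESeq2 called 6 subunits lower (7.23%, against 0.637% of all genes) and 0 higher. Limma with voom called 0 lower and 0 higher, where it called 0.0603% of all genes lower and 0.0536% higher. The groups did not overlap for 13 subunits, all lower (15.7%, against 1.74%). The 8 subunits with a positive value stood against 51.8% of all genes, and the 1 higher at an unadjusted p under 0.05, Cox8a, against 7.31%.

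The 6 called by DESeq2 were Atp5a1 (-0.60 ± 0.17, DESeq2 adjusted p = 0.0183), Sdha (-0.54 ± 0.16, 0.0365), Sdhb (-0.61 ± 0.16, 0.0211), Cox7b, Ndufs1 and Ndufa10. The first 5 of these were also among the 8 called with the control virus, so that 5 were shared, which is 5 of 8 and 5 of 6. The muscles of both viruses came from the same mice, and the share of all genes called in both is not given here. Sdhb was at 639.8, 453, 499.9, 448 and 432 CPM in sham mimic and 339, 238, 359, 302 and 365 in MOV mimic, without overlap. Atp5b had -0.51 ± 0.17 without overlap, Uqcrc2 -0.47 ± 0.16 with overlap and Ndufa12 -0.81 ± 0.34 with overlap. The summed level of Ndufa12 and its copy differed by -0.53 on the log2 scale (exact permutation p = 0.0397). Cox8a had 0.56 ± 0.21 (edgeR adjusted p = 0.312) and Cox6a1 0.39 ± 0.20 (edgeR adjusted p = 0.418), while Cox7a1 had -0.44 ± 0.15, Cox8b -0.48 ± 0.18 and Cox6a2 -0.35 ± 0.19, with edgeR adjusted p of 0.290, 0.320 and 0.449.

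The DESeq2 count of 6 was 0 without sham mimic 1, 0 without MOV mimic 1, 0 without MOV mimic 2, 3 without sham mimic 3, 2 without sham mimic 4, 2 without MOV mimic 4 and 13 without MOV mimic 5, of which 12 were lower and 1 higher. It was 10, all lower, without the libraries numbered 1 of sham and 5 of MOV. Over all genes the share that DESeq2 called lower was 4.61% without MOV mimic 5 and 2.81% without those libraries, and 0.169% to 0.826% without each of the other libraries. The median of the subunits was between -0.29 and -0.19 when each library was left out in turn. With total counts as the only scaling, 49 of 83 subunits were negative with a median of -0.04, while the median of all genes was 0.22.

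Between the viruses no subunit passed the test of edgeR or DESeq2, and most fitted values lay a little below 0. In MOV mimic against MOV control, 66 of 83 were negative (79.5%, against 50.7% of all 15220 genes) with a median of -0.07. In sham mimic against sham control, 81 of 84 were negative (96.4%, against 49.8% of all 14746 genes) with a median of -0.16. Of all genes edgeR called 0.0% in both, and DESeq2 called 0.0197% lower in MOV and 0.0% in sham. At an unadjusted p under 0.05 edgeR had 1 subunit lower in MOV (1.2%, against 1.75%) and 13 lower in sham (15.5%, against 1.16%), with 0 higher in both. In MOV 0 subunits were without overlap (against 0.447% of all genes lower), and in sham the 3 subunits with a positive value stood against 50.2% of all genes. The 2 comparisons share no library. The control libraries of each also enter the comparisons of MOV with sham above. The sham median was -0.06 without sham control 1 and -0.09 without sham control 2. The MOV median was -0.01 without MOV mimic 2, -0.04 without MOV control 5, -0.14 without MOV control 2 and -0.13 without MOV mimic 5.

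The lowest value in both was that of Atp5k, the ATP synthase subunit e, with -0.86 ± 0.34 in MOV and -0.64 ± 0.27 in sham, with edgeR adjusted p of 0.999 and 1.000. It is named after its values were seen. In MOV control it was at 50.5, 36.5, 56.0, 75.2 and 151 CPM and in MOV mimic at 53.2, 36.1, 39.5, 49.5 and 23.4, and the groups overlapped, MOV control 5 being highest. In the sham muscles the Cox7a1 to Cox7a2 log2 ratio was 0.08, -0.51, 0.02, 0.12 and -0.07 with the mimic, below all sham control libraries (difference -0.43, exact permutation p = 0.00794, adjusted p = 0.0847). In MOV it differed by 0.07 (exact permutation p = 0.619, adjusted p = 0.762). Cox8b to Cox8a differed by -0.20 (exact permutation p = 0.484, adjusted p = 0.704) in MOV and -0.30 (exact permutation p = 0.508, adjusted p = 0.707) in sham. Ndufa4l2 was the only subunit whose groups did not overlap in sham mimic against sham control (-0.45 ± 0.16, edgeR adjusted p = 1.000, against 0.197% of all genes lower without overlap).

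The change with overload was also compared between the viruses directly. The interaction of surgery and virus, fitted over all 20 libraries, was past the threshold for 0 of 84 subunits by edgeR and by DESeq2, and 0 had an unadjusted p under 0.05 by edgeR, where 1.34% of all genes were negative and 1.3% positive at that level. Of all 16166 genes, edgeR called 0.0% and DESeq2 0.00619%. Of the 84, 59 had a positive value, meaning a higher change with the mimic, and 25 a negative one, against 52.0% of all genes, with a median of 0.08 and values from -0.47 (Cox4i2) to 1.16 (Cox6b2), both low in counts. The number of negative values, 25, was 44 without sham control 1, 38 without sham control 2, 12 without sham control 3, 8 without sham control 4, 6 without sham mimic 1, 12 without MOV control 5 and 7 without MOV mimic 2.

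Ndufs6b, a copy of the complex I gene Ndufs6, was not among the members. It was counted at 36, 27, 31, 15 and 32 reads with the control virus after overload and at 0, 6, 19, 0 and 9 with the mimic. It was taken up because the study lists it, a choice made on these samples. The groups overlapped by 1 library of MOV mimic, and 2 of its libraries had no count, which allows up to 3 counts each. The log2 ratio to Ndufs6, computed with a prior count of 2 and so no bound where counts are 0, differed by -2.14 (exact permutation p = 0.0159, adjusted p = 0.0847) in MOV mimic against MOV control, with the edgeR adjusted p of the gene itself at 0.999. Ndufs6 had 875 to 1384 counts in the same libraries. In MOV mimic against sham mimic the ratio differed by -1.61 (exact permutation p = 0.0317, adjusted p = 0.127), and the unadjusted p was 0.0714 to 0.0952 without any 1 of the 5 sham mimic libraries. It differed in MOV control against sham control by 0.35 (exact permutation p = 0.214, adjusted p = 0.457) and in sham mimic against sham control by -0.18 (exact permutation p = 0.484, adjusted p = 0.704).

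The subunits made from the mitochondrial genome stood lower still in the muscles with the control virus. Of 12 tested in MOV control against sham control, 12 were negative (against 45.8% of all genes), 0 passed edgeR's test and 7 passed DESeq2's, all lower (against 3.48% of all genes), with a median of -0.73. DESeq2 called 4 without sham control 2 (where it called 1.69% of all genes lower), 11 without sham control 3 (4.94%) and 11 without sham control 4 (3.71%), and the median lay between -0.86 and -0.58 when each library was left out in turn. By edgeR, 3 passed without sham control 3 and 2 without MOV control 5, where 1.66% and 1.35% of all genes were called lower. The values ran from -0.94 for mt-Nd2 to -0.15 for mt-Nd3. With the mimic 12 of 13 were negative after overload (median -0.57, against 48.2% of all genes negative), and 1 was called lower by DESeq2 (against 0.637%). Without MOV mimic 5, 13 of 13 were negative with a median of -0.78, and DESeq2 called 10 and edgeR 2, while the shares of all genes called lower rose to 4.61% and 0.333%. All 12 were positive in MOV mimic against MOV control, unlike most nuclear subunits, with a median of 0.38, 3 at an unadjusted p under 0.05 by edgeR (against 2.46% of all genes higher at that level) and 0 called by edgeR or DESeq2. MOV mimic 5 stood apart in this list, with a median deviation of 0.64 where the other 4 MOV mimic libraries lay at -0.39 to -0.30. Without it 9 of 12 were positive against MOV control, with a median of 0.14 and 0 at an unadjusted p under 0.05. In sham mimic against sham control 12 of 13 were positive (median 0.21, 0 called). These transcripts come from 1 polycistronic unit per strand and are not independent of each other.

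The other mitochondrial lists were read against the same shares of all genes, 45.8% negative and 3.48% called lower by DESeq2. Among 48 assembly factors tested in MOV control against sham control, 37 were negative with a median of -0.14, 0 passed edgeR and 2 passed DESeq2, both lower, a share close to that of all genes. The range was from -1.46 ± 0.48 for Cox20 to 0.29 ± 0.16 for Cox19, both of which help to build complex IV. Of 12 electron carrier genes 10 were negative (median -0.25, 2 called lower by DESeq2), from -0.60 ± 0.17 for Coq9 to 0.77 ± 0.25 for Coq8b, both of coenzyme Q synthesis. Cycs, cytochrome c, had -0.54 ± 0.16 (edgeR adjusted p = 0.116, DESeq2 adjusted p = 0.0299). Of 76 mitochondrial ribosomal proteins 55 were negative, with a smaller median of -0.12 and 0 calls by edgeR or DESeq2, from -0.59 for Mrpl16 to 0.38 for Mrpl57. Of 13 other mitochondrial genes 11 were negative (median -0.26, 2 called lower by DESeq2). They ranged from -1.10 ± 0.23 for Ckmt2, the mitochondrial creatine kinase of muscle (edgeR adjusted p = 0.0554, DESeq2 adjusted p = 2.29e-04), to 0.30 for the import receptor Tomm22. These small counts rested on single libraries: when each library was left out in turn, DESeq2 called 0 to 7 assembly factors, 0 to 4 electron carrier genes and 2 to 5 of the other mitochondrial genes, while it called 1.69% to 5.83% of all genes lower. The highest number was reached without MOV control 5 for the assembly factors and without sham control 3 for the other 2 lists. DESeq2 called 0 assembly factors and 0 electron carrier genes without sham control 1, 2 or 5 or MOV control 1 or 3.

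Of 17 regulators of mitochondrial genes, 11 were negative in the same comparison (median -0.11) and 0 passed edgeR or DESeq2. Ppargc1a, the coactivator that drives mitochondrial gene programmes, had -0.53 ± 0.19 (edgeR adjusted p = 0.161, DESeq2 adjusted p = 0.0954) and the nuclear receptor Esrra, its partner, -0.46 ± 0.16 (0.152 and 0.0700). Nrf1, Gabpa and Tfam had -0.16 ± 0.19, -0.13 ± 0.11 and -0.11 ± 0.15. The lowest of the list was Esrrb (-0.62) and the highest Tfb1m (0.47). After overload with the mimic Ppargc1a had -0.51 ± 0.16 (edgeR adjusted p = 0.285), Esrra -0.26 and Cycs -0.43 ± 0.14. The medians there were -0.15 for assembly factors, -0.36 for electron carriers, -0.11 for mitochondrial ribosomal proteins and -0.28 for the other mitochondrial genes. DESeq2 called 1 electron carrier gene lower and 1 higher, and 1 of the other mitochondrial genes lower. Of all genes it called 0.637% lower and 0.845% higher. Between the viruses in MOV the medians were -0.07 for assembly factors, -0.10 for electron carriers, -0.000681 for regulators, -0.09 for mitochondrial ribosomal proteins and 0.01 for the other mitochondrial genes, with 0 calls by edgeR or DESeq2.

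The subunit level was set beside the level of fibre markers in each library, and their association was not tested. The median deviation of the subunits from their mean over the 20 libraries was 0.23 ± 0.30 (SD, n = 5) in sham control, -0.10 ± 0.18 in MOV control, 0.07 ± 0.17 in sham mimic and -0.20 ± 0.19 in MOV mimic. That of the 11 muscle fibre markers was 0.21 ± 0.26, -0.06 ± 0.31, 0.16 ± 0.23 and -0.25 ± 0.37 in the same order. The difference of the 2 within a library was -0.09 to 0.08 in sham control, -0.23 to 0.08 in MOV control, -0.20 to 0.16 in sham mimic and -0.27 to 0.36 in MOV mimic, so that all groups overlapped on this scale. Against the mitochondrial ribosomal proteins, the subunits lay at -0.01 to 0.23 in sham control and 0.01 to 0.09 in sham mimic, and at -0.16 to -0.06 in MOV control and -0.16 to -0.03 in MOV mimic, without overlap between sham and MOV of either virus. No other mitochondrial list was set against the subunits in this way. The other mitochondrial genes had a median deviation of 0.20 ± 0.30 in sham control and -0.13 ± 0.13 in MOV control. With the mimic it was 0.15 ± 0.20 in sham and -0.21 ± 0.16 in MOV. Whether the subunits separate from those genes was not tested.

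**Figure D5:**
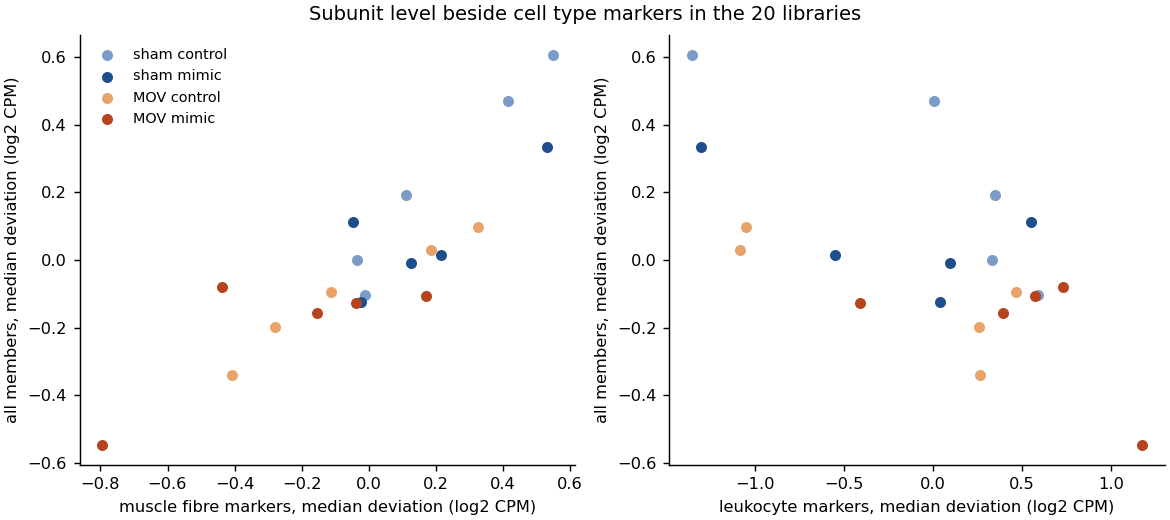
Median deviation of all tested subunits (vertical axis) against that of muscle fibre markers (left) and leukocyte markers (right) on the log2 CPM scale, each point a library coloured by group. MOV mimic 2 lies at the lowest fibre marker value (-0.79) and at the highest leukocyte marker value (1.17).

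Within the fibre list the fitted values of the myosin genes differed in sign. In MOV control against sham control Myh4, the fastest myosin, had -1.59 ± 0.30 (edgeR adjusted p = 0.0554, DESeq2 adjusted p = 2.46e-06) and Myh1 had 0.84 ± 0.33. Of 11 muscle fibre markers 7 were negative with the control virus (median -0.19) and 10 with the mimic (-0.37). Of 7 slow fibre markers 5 were positive with the control virus (median 0.92, 1 of the other 2 called lower by DESeq2) and 6 with the mimic (1.41). Satellite cell and new fibre markers were positive for 7 of 7 in both (medians 1.18 and 0.83). Leukocyte markers had medians of -0.28 and 0.66, fibroblast markers 0.25 and 0.21, endothelial markers -0.38 and -0.36 and adipocyte markers -1.44 and -1.19. edgeR called 0 marker genes in these comparisons. Besides Myh4 and the slow fibre gene, DESeq2 called 1 of 7 endothelial markers lower and 1 of 7 satellite cell or new fibre markers higher with the control virus. With the mimic it called 2 of 7 endothelial markers lower and 1 of 14 leukocyte markers higher. Of all genes it called 3.48% lower and 2.62% higher with the control virus, and 0.637% lower and 0.845% higher with the mimic. Without MOV mimic 5 DESeq2 called 6 leukocyte markers higher and 4 muscle fibre markers lower with the mimic, while the shares of all genes called higher and lower rose to 4.08% and 4.61%. Without sham mimic 3 it called 4 leukocyte markers higher, with 0.838% of all genes called higher. The fibroblast medians turned to -0.04 without sham control 1 and -0.07 without sham mimic 1. All 14 leukocyte markers were positive in MOV mimic against MOV control (median 0.70, 0 called), and their summed level was 428 to 1362 CPM in MOV control and 736 to 2206 in MOV mimic. The part of cell makeup in the subunit values was not tested.

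Short and long subunits were set side by side, since RNA quality and read counting can depend on length. Split at the median coding length of 414 bases, the short subunits had a median log2 fold change of -0.34 and the long ones -0.36 in MOV control against sham control. In MOV mimic against sham mimic they had -0.18 and -0.32, and in sham mimic against sham control -0.26 and -0.10. They were closer in MOV mimic against MOV control (-0.09 and -0.07). The coding lengths come from the same older annotation, and the part of length was not tested.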

How the data were processed

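The authors trimmed the reads with Trim Galore 0.6.10 and cutadapt 4.4 after FastQC 0.11.9, aligned them to GRCm38 with HISAT2 2.0.5, counted reads per gene with featureCounts 1.5.0-p3 and deposited raw counts per gene for each of the 20 libraries; their own fold changes were made with DESeq2 1.34.0, and no such column was used. Which annotation release was used, whether strand was read and how multiply matching reads were treated are not given in the sources used here, so that copies and overlapping genes may share reads. The total was 12036360 to 23056525 counts per library, which sets the counting error of low genes.

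The members and the gene and marker lists were chosen with earlier results of these data known. Groups followed the labels. The deposited counts were tested with edgeR 4.0.16 (quasi-likelihood, TMM scaling, filterByExpr) in R 4.3.3 on the whole table, with Benjamini-Hochberg adjustment over all genes tested and a threshold of 0.05. Each comparison used only its 10 libraries, and the interaction used all 20. DESeq2 1.42.0 and limma 3.58.1 (voom with quality weights), other scalings and filters, a replicate block and leaving out each library were alternatives. The fits were run on simulated counts to check the sign and size of changes put in, and the rate of false calls is not given here. Levels are CPM with TMM scaling, and ratios of paired genes use log2 CPM with a prior count of 2 and a two-sided exact permutation test. P-values measure the spread between muscles. Each mouse gave a control and a mimic muscle, but the labels tie no library to a mouse. Same-group libraries were compared for duplicates, and in all 40 pairs the counts differed by far more than sampling noise (chi-square per gene 13.9 to 168).

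Named with values were, for complexes I, III, IV and V, the 2 members with the lowest and the 2 with the highest fold change in MOV control against sham control and the 2 with the highest mean CPM, as well as all Sdh genes, both members of each pair of related genes and Ndufs6b. Of each other pathway list the lowest and highest gene were named, and Ppargc1a, Esrra, Nrf1, Gabpa, Tfam and Cycs. The values of 1 further gene are not reported here. Exceptions are said to be named after their values were seen. Promoter sequences are RefSeq's for GRCm38.p6, matched by symbol for 69 of 86 members. The symbols Ndufb1 and Ndufb4b were matched to no gene of the tables and are not analysed here.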

Additional observations from a re-analysis of the deposited data

Results flagged for a closer look

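In groups of 5, a library was looked at again where its gap to the nearest other library, divided by the range of the group, passed the critical value of 0.71 (Dixon's ratio at the 95% level). Of 184 values tested 11 passed, and chance gives about 1 in 20. No explanation was tested for any of them.

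MOV mimic 2 was the lowest library of its group in 6 of the 11. Its median deviation over all subunits was -0.55 (ratio 0.839), over complex I -0.55 (0.779), over complex IV -0.52 (0.800) and over complex V -0.57 (0.842). For single genes it stood at 197 CPM for Atp5g1, a subunit c gene (0.856), and at 283 CPM for Uqcrfs1, the Rieske protein (0.724). Its muscle fibre markers were also the lowest of all libraries (-0.79) and its leukocyte markers the highest (1.17).

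Sham mimic 1 was the highest library of its group for Sdha, with 1036 CPM (ratio 0.805). MOV control 1 was the lowest for Uqcrc2, with 299.9 CPM (0.778). MOV control 5 was the lowest for Ndufa4l2, with 3.58 CPM (0.745), and for the log2 ratio of Ndufa4l2 to Ndufa4, at -6.96 (0.772). It was the highest for the log2 ratio of Cox8b to Cox8a, at 2.44 (0.737).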

How the results depend on the processing

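No alternative gave a subunit past the threshold between the viruses or in the interaction. In MOV control against sham control edgeR's count of 0 was 1 with all 20 libraries in the fit, 1 with at least 10 counts in total and 3 with no filter, where 0.198%, 0.509% and 0.879% of all genes were called lower. It was 8 with DESeq2 (3.48% of all genes), 9 with limma voom (3.52%) and 0 to 2 without each library in turn (0.0% to 1.66%). In MOV mimic against sham mimic it was 6 with DESeq2 and 0 with limma voom. The DESeq2 counts of 8 and 6 were 1 to 16 and 0 to 13 (12 lower and 1 higher) without each library in turn, and both were 10 without the libraries numbered 1 of sham and 5 of MOV, an alternative chosen after seeing the data. Whether equal replicate numbers pair the muscles of 1 mouse was not settled. Correlations of their deviations were 0.035 to 0.321 in MOV and 0.012 to 0.663 in sham, positive in 10 of 10, over 0.1 in 7 and above the mean with other numbers in 9, and 3 of 5 MOV and 1 of 5 sham numbers correlated best with their own. Between MOV and sham, equal numbers are different mice, so that a block there joins unrelated animals. With that replicate block the DESeq2 counts of 8 and 6 were 4 and 2, with 2.71% and 0.362% of all genes called lower, and edgeR's were 0. Between the viruses, where equal numbers could be 1 mouse, 0 subunits were called with the block. Over all genes, DESeq2's calls with it in MOV mimic against MOV control went from 3 lower to 43 lower and 84 higher. The Cox7a1 to Cox7a2 difference in sham mimic against sham control had an exact sign-flip permutation p of 0.0625 over equal numbers, the smallest that 5 pairs give, and so had the Ndufs6b to Ndufs6 difference in MOV mimic against MOV control.

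With total counts as the only scaling, 49 subunits were negative in MOV mimic against sham mimic, and the medians were -0.0386 over all, -0.0278 in complex I, -0.229 in II, -0.0319 in III, 0.0228 in IV and -0.0737 in V. The 25 negative interaction values became 16 with that scaling, 10 with limma voom and 6 to 44 without each library.

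Values near 0 changed sign. In MOV control against sham control, total counts gave log2 fold changes of 0.0649 for Atp5g3, 0.120 for Atp5mpl, 0.133 for Cox4i2, 0.0727 for Ndufa2, 0.143 for Ndufb7, 0.0448 for Ndufs6b, 0.0167 for Sdhc and 0.150 for Uqcrh. Limma voom gave -0.0162 for Atp5g2 and 0.0329 for Cox4i2. Without the libraries numbered 1 of sham and 5 of MOV, edgeR and DESeq2 gave -0.00546 and -0.00615 for Atp5g2, 0.0358 and 0.0352 for Cox4i2 and 0.00623 and 0.00592 for Ndufb7. Without each library in turn the ranges were -0.0715 to 0.129 for Atp5g2, -0.235 to 0.0844 for Atp5mpl, -0.249 to 0.0803 for Cox4i2, -0.0339 to 0.178 for Cox6a1, -0.202 to 0.0120 for Ndufa2, -0.0955 to 0.0703 for Ndufb7, -0.309 to 0.0482 for Ndufs6b and -0.106 to 0.0728 for Uqcrh. The ratio differences ranged from -0.0199 to 0.144 for Cox7a1 to Cox7a2 in MOV mimic against MOV control, and in MOV mimic against sham mimic from -0.224 to 0.000568 for Atp5g1 to Atp5g3 and from -0.354 to 0.230 for Ndufa4l2 to Ndufa4. The cause of these changes was not tested.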
